A study of Mus musculus with 2 samples.

Results

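Early elongating spermatids were taken as 250 cell barcodes per library, 500 in all, out of 38095 barcodes from whole mouse testis. They were chosen from measured UMI counts, each UMI standing for 1 captured RNA molecule. Barcodes first had to hold at least 2000 UMIs, at most 20% mitochondrial UMIs and over 4% of UMIs from Prm1, Tnp1 and Tnp2 together. Each was then scored by the share of its UMIs from 6 early genes (Fam71b, Cst13, Tuba8, Prss52, Hemgn and Actrt3, called A) and from 5 late genes (Nudt16l2, Ttc24, Bpifa3, Tmem239 and 1700042G07Rik, called B). Members had A above B and were the 250 highest A shares in their library, so the levels of these 14 genes describe the choice and are not findings.

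The series holds 2 libraries, 1 from Prm2 +/- mice, called heterozygous here, and 1 from Prm2 -/- mice, called knockout. Both came from whole testis with a wash that depletes Leydig cells, and the labels give neither the age nor the number of animals, nor which part of Prm2 was altered. No wild-type library is analysed here. With 1 library per genotype no difference has a replicate check, so no p-value is given: a 2-fold difference is a rule of size, and 95% intervals cover counting error only.

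After meiosis a haploid round spermatid builds an acrosome and the base of its tail, and then elongates. During elongation testis histone variants and then the transition proteins Tnp1 and Tnp2 take over from the usual histones, and these give way to the protamines, small arginine-rich proteins that pack sperm DNA most tightly. Transcription stops as the chromatin closes, so much of the mRNA of this stage, protamine mRNA included, is stored and translated later.

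In the heterozygous library 7316 of 15210 barcodes passed the depth and mitochondrial limits, 2735 of these passed the 4% limit, and 291 of those (10.6%, exact interval 9.51 to 11.9%) had A above B. In the knockout library 15503 of 22885 barcodes passed, then 5325, and 1631 of those (30.6%, interval 29.4 to 31.9%) had A above B. The fixed number of 250 therefore took 85.9% of the candidates in the heterozygous library and 15.3% in the knockout library. The last heterozygous member had an A share of 0.234% (18 of 7697 UMIs) and the first barcode left out 0.233% (67 of 28800). The last knockout member had 0.541% (15 of 2773 UMIs) and the first left out 0.541% (20 of 3700). The knockout members are thus a narrower choice, with a median A share of 0.597% against 0.405%, and counts, list medians and the leading genes are given below for knockout cells matched to the heterozygous members as well.

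**Figure D1:**
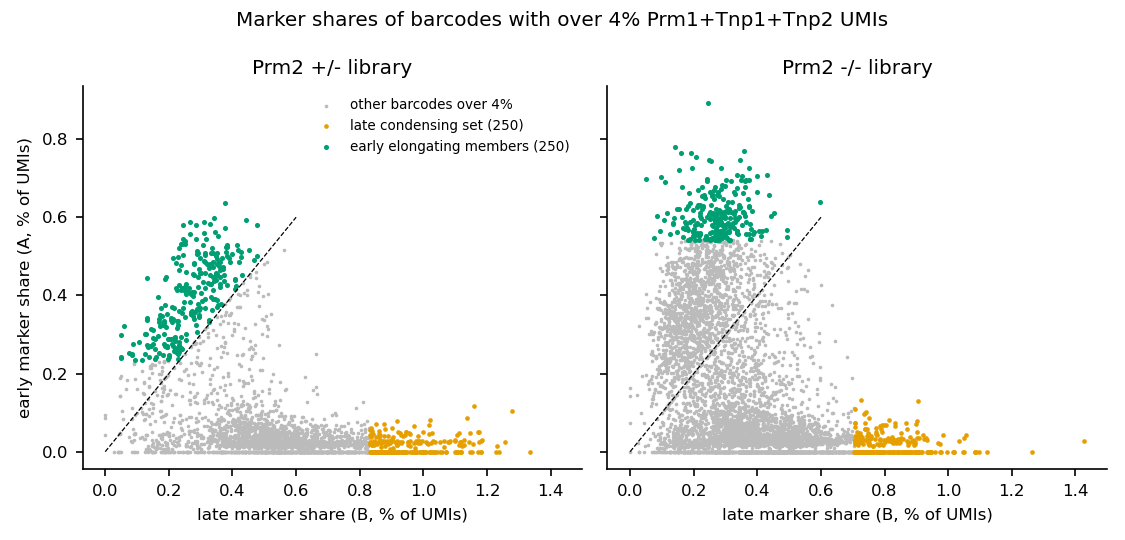
Share of UMIs from the 6 early genes (A, vertical axis, %) against the share from the 5 late genes (B, horizontal axis, %) for every barcode with over 4% Prm1, Tnp1 and Tnp2 UMIs, 2735 in the Prm2 +/- and 5325 in the Prm2 -/- library. Green points are the 250 members, orange points the 250 late condensing cells, and the dashed line marks equal shares; the green points stop at an A share of 0.234% in the first panel and 0.541% in the second.

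The choice cut through a continuous range. Of heterozygous barcodes over the 4% limit with at least 10 A and B UMIs together, 258 of 2599 had A between 40% and 60% of that sum, and in the knockout library 772 of 5073 did. The A part of the sum had a median of 59.4% in heterozygous and 68.3% in knockout members. Late genes were therefore present in the members as well, at 2743 CPM (a gene's UMIs over all UMIs of the set, with the total scaled to 1000000) summed over the 5 in heterozygous and 2787 CPM in the knockout members.

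Heterozygous members had a median of 11636 UMIs and 3256 genes per cell, and knockout members 6141.5 UMIs and 2326 genes. Their median share of Prm1, Tnp1 and Tnp2 was 10.1% and 10.9%, and their median mitochondrial share 0.0795% and 0.280%. Scrublet, a doublet caller, marked 5 heterozygous and 7 knockout members, which were kept. The 2 libraries shared 88 barcode sequences, of which 4 belonged to heterozygous members and 0 to knockout members.

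3 other sets of 250 cells per library served for comparison. Late condensing spermatids came from the same barcodes over 4%, with B above A and the highest B shares. Round spermatids had at most 4% Prm1, Tnp1 and Tnp2 and the highest share of Acrv1, Spaca1, Spaca7, Sun5, Catsper3 and Lyzl1. Sertoli cells, which should not transcribe spermatid genes, were the highest share of 15 Sertoli markers and give the level of these genes in a cell type that should lack them.

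All 6 early genes were far higher in the members than in the other sets, which is what the rule selected. The label was also set beside markers that the rule did not use. The round spermatid list, 6 genes, summed to 1340 CPM in heterozygous and 950.0 CPM in knockout members against 4435 and 5164 CPM in round spermatids, a set chosen for these same 6 genes, so its level was fixed by that choice. Markers of most other testis cells were low: spermatogonial genes summed to 37.5 and 42.5 CPM over 10 genes, Leydig genes to 31.7 and 19.3 over 10, myoid and stromal genes to 21.8 and 32.3 over 12, macrophage and lymphoid genes to 18.4 and 22.7 over 12, endothelial genes to 25.6 and 20.4 over 7 and hemoglobin and red cell genes to 0.682 and 1.13 over 5. Preleptotene to zygotene genes summed to 113 and 151 CPM over 10. The pachytene list stood at 6012 and 6634 CPM, of which Ldhc, a lactate dehydrogenase that spermatids keep, made up 5285 and 5633. Sertoli genes differed between the libraries, with 99.3 CPM in heterozygous and 329 CPM in knockout members over 15 genes (per-cell medians 0 and 224 CPM), led by Defb19 at 43 and 107 CPM.

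Hemgn and Fam71b stand among the 6 genes that define the cells, and Prm2 is the gene altered in the knockout, so the DNA just before their annotated starts is shown. These are 100 bases each from RefSeq promoter windows on GRCm38.p6, 5′ to 3′ on the gene's own strand. Hemgn is read from the minus strand of chr4:46404237-46404336, 5′ of the first exon of a GENCODE M21 transcript that starts 53 bases before the RefSeq start. Fam71b is read from the plus strand of chr11:46404628-46404727, inside the longer GENCODE gene but in no exon. Prm2 is read from the minus strand of chr16:10792106-10792205, directly before its RefSeq start and likewise inside the longer GENCODE gene but in no exon. Capitals mark TATAAA or its reverse complement TTTATA.
Hemgn: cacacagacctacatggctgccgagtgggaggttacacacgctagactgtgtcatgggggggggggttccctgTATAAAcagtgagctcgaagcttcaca
Fam71b: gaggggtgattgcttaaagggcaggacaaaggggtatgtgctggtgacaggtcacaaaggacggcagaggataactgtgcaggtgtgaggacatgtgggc
Prm2: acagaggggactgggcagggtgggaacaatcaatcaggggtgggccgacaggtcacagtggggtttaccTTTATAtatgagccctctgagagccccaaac

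The match begins 27 bases before the GENCODE transcript start in Hemgn and 31 bases before the start in Prm2, where it lies on the other strand. The windows of 300 bases (250 before to 50 after the start) of 5 of the 6 early genes were found by symbol. TATAAA on either strand was in 2 of those 5 (Hemgn and Cst13) and in 0 of 5 late genes, against 13.6% of 32851 windows of that length. TGACG or CGTCA, the core of a cAMP response element, was in 1 of 5 (Actrt3) and 0 of 5, against 20.8%, and the full TGACGTCA, which contains it, in 0 of 5 and 0 of 5, against 1.79%. GTTGCC or GGCAAC, letters found in X-box sites, was in 1 of 5 (Tuba8) and 0 of 5, against 12.5%. No motif searched was common to the early genes in this window.

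Among the 6 early genes Cst13, of the cystatin family of cysteine protease inhibitors (ENSMUSG00000036924, mm10 chromosome 2, 148820081 to 148830410, plus strand), was the highest. It stood at 1097 CPM in heterozygous members, 47.1 in late condensing, 103 in round and 91 in Sertoli cells, and at 1832, 55.7, 160.5 and 82.8 CPM in the knockout library. The late values lay below the Sertoli values, and the round values above them, in both libraries.

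Hemgn, a nuclear protein first described in blood-forming cells (chromosome 4, 46393989 to 46413506, minus strand), stood at 834 and 821 CPM in heterozygous and knockout members. It was 20.8 and 24.6 CPM in late, 85.5 and 67.5 in round and 46.6 and 30.7 in Sertoli cells. After each cell was thinned to 2000 UMIs, 74.0% of heterozygous and 79.6% of knockout members had a Hemgn UMI (97.2% and 96.8% unthinned), against 10.4% of 48 and 4.59% of 109 Sertoli cells deep enough to thin. Hemgn was the only one of the 6 whose level did not differ between the members of the 2 libraries beyond counting error, at a log2 ratio of -0.02 (interval -0.12 to 0.07).

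Fam71b, of the family of Golgi-associated RAB2 interactors (chromosome 11, 46396559 to 46407982, plus strand), stood at 654 and 994 CPM in members and at 23.2 and 37.5 in late spermatids. Prss52, a testis serine protease (chromosome 14, 64104286 to 64113755, plus strand), stood at 568 and 907 against 27.2 and 34.3 CPM. Tuba8, an alpha-tubulin (chromosome 6, 121210696 to 121226854, plus strand), stood at 586 and 1063 against 28.8 and 38.6 CPM. Actrt3, an actin-related protein of the perinuclear theca, the shell between acrosome and nucleus (chromosome 3, 30597073 to 30599939, minus strand), was the lowest of the 6 at 309 and 436 against 14.4 and 11.8 CPM. A UMI of Actrt3 was found in 43.6% of heterozygous and 61.6% of knockout members after thinning, and in 4.17% and 0.917% of Sertoli cells. The other 5 early genes were higher in knockout than heterozygous members by log2 0.50 to 0.86, a difference that the higher A share at which knockout members were chosen contains.

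The 5 late genes had almost the same level in the members of both libraries, with log2 ratios between -0.04 and 0.16. The highest, 1700042G07Rik, stood at 1190.3 and 1201 CPM in members, 4002 and 3472 in late and 197 and 118 in round spermatids. In round spermatids all 5 were lower in the knockout than in the heterozygous library, by log2 -0.73 to -1.77. The 5 summed to 431 and 231 CPM in round cells, below the 1369 and 537 CPM of Sertoli cells, which also differed between libraries. How much of the round values is such background was not tested.

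**Figure D2:**
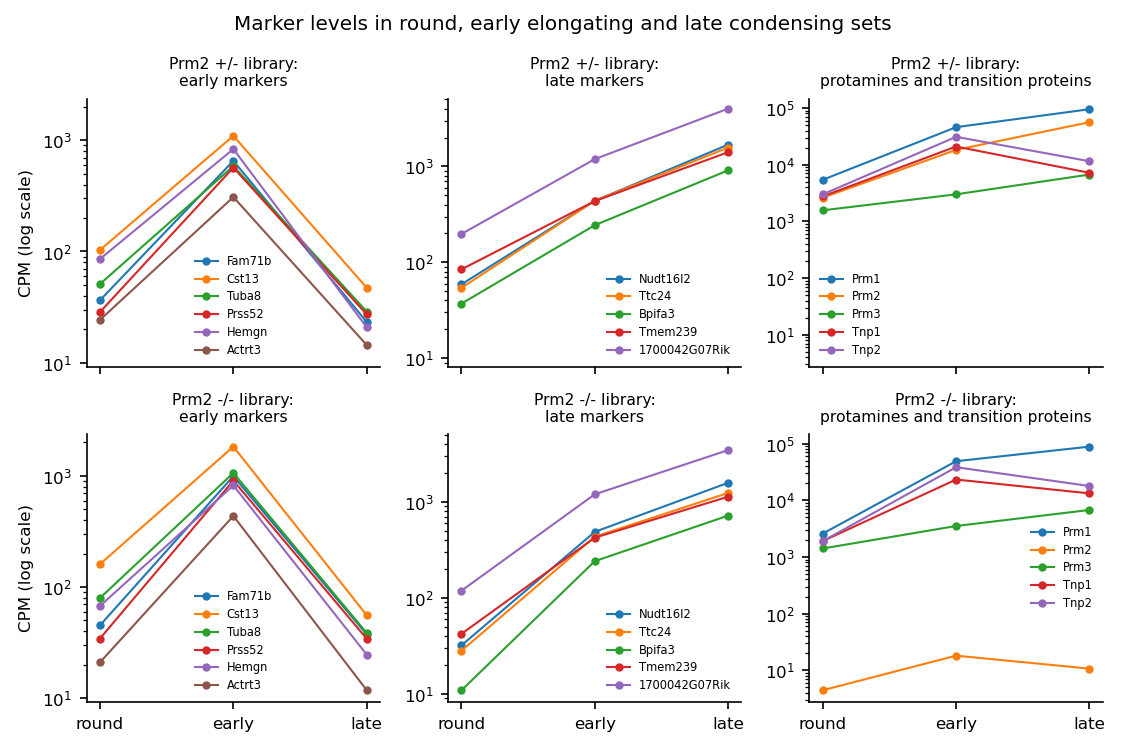
CPM (log axis) of the 6 early genes, the 5 late genes and the 5 protamine and transition protein genes in round, early elongating and late condensing sets of 250 cells, Prm2 +/- library above and Prm2 -/- library below. Lines join the sets and are not a time course; the early genes peak in the members, Prm1 and Prm3 are highest in the late set, and Prm2 lies below 20 CPM in every set of the Prm2 -/- library.

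Of the 3 spermatid sets, Tnp1 and Tnp2 were highest in the members and Prm1 and Prm3 in the late condensing cells of both libraries, while Prm2 was highest in late cells in the heterozygous library only. Tnp2 stood at 30988 CPM in heterozygous members against 2998 in round and 11506 in late cells, and at 38224, 1901 and 17818 CPM in the knockout library. Tnp1 stood at 20904, 2763 and 7194 CPM in the same order, and at 23174, 1903 and 13209 in the knockout library. Both transition proteins were thus lower in the late set of each library, though less so in the knockout library, by log2 1.54 and 0.81 for Tnp1 and 1.43 and 1.10 for Tnp2, members over late. With 100 cells per set these were 2.87 and 1.75 for Tnp1 and 2.51 and 1.87 for Tnp2. With all barcodes with A above B, a choice added after the data were seen, the knockout values were 0.45 and 0.69. Whether the 2 libraries differ in this cannot be tested with 1 library each.

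Prm1 stood at 45874 CPM in heterozygous members, 5414 in round and 95149 in late cells, and at 48787, 2581 and 88167 CPM in the knockout library. Prm3, a gene of the same cluster whose product is not a basic DNA-packing protein, stood at 2999 and 3512 CPM in members and 6701 and 6737 in late cells. The members of the 2 libraries differed by log2 0.09 in Prm1, 0.23 in Prm3, 0.15 in Tnp1 and 0.30 in Tnp2, all under the 2-fold rule. Because Prm1, Tnp1 and Tnp2 belong to the rule, these are descriptions. The median share of these 3 genes was 4.00% in heterozygous and 0.911% in knockout Sertoli cells. In round cells it was lower, at 1.22% and 0.510%. How much of the round values, and of their difference between libraries, is such background was not tested.

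Prm2 was high in heterozygous members and close to 0 in knockout members, as the genotypes in the labels give. Heterozygous members held 18239.9 CPM (53464 UMIs, median 192.5 per cell) and late cells 56145 CPM. Knockout members held 18.1 CPM (32 UMIs), late cells 10.7 and round cells 4.46, a log2 ratio in the members of -9.97 (interval -10.52 to -9.48). After thinning 4.80% of knockout members (12 of 250, interval 2.50 to 8.23%) had a Prm2 UMI, unthinned 11.6%, against 0 of 109 knockout Sertoli cells, which by a limit of 3 counts allows a share of up to 2.75% of cells with a UMI at this depth. All heterozygous members had one, and so did 89.6% of heterozygous Sertoli cells; where those UMIs came from was not tested. Tags at the 3′ end count RNA that reaches the last exon, and the labels do not say whether the altered part lies there, so these values check the library's label and not the deletion itself.

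Apart from the protamine and transition protein genes, the most abundant nuclear genes of the members had like levels in both libraries. Meig1, needed for the manchette and tail assembly, stood at 5566 and 6484 CPM, and Ldhc at 5285 and 5633. Smcp, a protein of the sperm mitochondrial capsule, stood at 4418 and 4258, and Dbil5, an acyl-CoA-binding protein, at 4348 and 4381. Ropn1l, Fabp9 and Gsg1 lay between 3036 and 4287 CPM. In none of these 7 did the libraries differ by more than log2 0.22.

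Against late condensing spermatids more genes were 2-fold higher than 2-fold lower in the members. Of 2640 genes that reached 50 CPM in either set, with 100 or more UMIs over both sets in each library, 948 were 2-fold higher in the members in both libraries (35.9%) and 186 were 2-fold lower (7.05%). Over all genes tested the median log2 ratio, members over late, was 0.87 in the heterozygous and 0.47 in the knockout library. Since A against B chose both sets, this contrast describes how they differ. The members also held more UMIs, 2931150 and 1763108 against 1251383 and 933372 in the late sets. Genes high in the members therefore reached 100 UMIs more easily than genes high in late cells. With every cell thinned to 2000 UMIs 406 of 1360 genes were higher and 148 lower, and at a minimum of 200 CPM 339 of 1012 and 141.

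The 12 genes named as highest in members over late cells have varied roles. Ccin, calicin of the perinuclear theca, stood at 523 and 559 CPM in members and 20 and 33.2 in late cells, log2 4.71 and 4.07. Cd55, a complement regulator on the cell surface, stood at 170.2 and 89 against 3.2 and 4.29 CPM, and Cd59b, another, at 165 and 94.2 against 4.00 and 2.14. Faiml, related to an inhibitor of Fas-induced apoptosis, stood at 223 and 280.2 against 6.39 and 10.7 CPM. Cyp51, an enzyme of sterol synthesis, stood at 228 and 254 against 9.59 and 9.64. Pex5l, Ccdc185, Dcdc2c and Iqcf6 had log2 ratios between 4.15 and 5.34. The remaining 3, Acot12, an acyl-CoA thioesterase, Otud1, a deubiquitinase, and Cstf2, a factor of mRNA 3′ end cleavage, had at most 5.36 CPM in the late cells of either library.

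The genes lowest in members over late cells stood apart less, at log2 -2.17 to -1.37 over 12 genes. Eif4h, a translation initiation factor, stood at 521 and 638 CPM in members and 1749 and 1651 in late cells. Bzw1, another regulator of translation start, stood at 371 and 505 against 1193 and 1348. Apoe, the lipid carrier, stood at 58.3 and 74.9 against 262 and 217 CPM. Macrophage and lymphoid genes were also higher in late cells, at 51.1 and 63.2 CPM against 18.4 and 22.7 in members. The part of other cells' RNA in Apoe was not tested. Dbil5, Iqcf4, Iqcf5, Ubl4b, Rpl41, Rps19, Asnsd1, Fscb and Klk1b3 were 2-fold lower or more in both libraries.

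Against round spermatids more genes were 2-fold lower than 2-fold higher in the members, by share of UMIs. Of 3760 genes tested 536 were 2-fold higher in members in both libraries (14.3%) and 1173 were 2-fold lower (31.2%), with a median log2 ratio of -0.51 and -0.56. At a minimum of 200 CPM the split was nearer to even, with 220 of 1297 higher and 270 lower. With totals without protamine and transition protein genes 638 of 3822 were higher and 991 lower. Cby3, a partner of the annulus of the tail, stood at 148 and 188 CPM in members and 7.88 and 1.91 in round cells. Klc3, a kinesin light chain of the sperm tail, stood at 131 and 165 against 7.28 and 6.37 CPM. Odf3b, of the outer dense fibre family, stood at 87.7 and 98.1 against 3.03 and 1.91, and Tmem151a at 142 and 233 against 6.06 and 8.92. Chmp1b, a subunit of the membrane-cutting ESCRT-III complex, stood at 148 and 163 against 7.88 and 10.2 CPM, with Esyt3, Mphosph6 and Nqo2 between 51.9 and 95.9 CPM in the members.

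The genes lowest in members over round cells were all at or below 13.3 CPM in the members. Spam1, a hyaluronidase of the acrosome and sperm surface, stood at 10.2 and 10.8 CPM against 212 and 218 in round cells, log2 -4.37 and -4.34. Efhb, an inner protein of axonemal microtubules, stood at 12.3 and 7.37 against 209 and 150.3, and Plin2, a lipid droplet coat, at 5.46 and 7.37 against 91 and 132 CPM. Slc4a2, an anion exchanger, Ctnnd2, Agbl1, Lurap1 and Fam228b lay between 2.39 and 13.3 CPM in the members of either library.

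The gene lists below leave out the 20 genes that chose the members, the late or the round set. Their counts are to be read against all genes tested, of which 35.9% were 2-fold higher and 7.05% lower in members than in late cells, and 14.3% higher and 31.2% lower than in round cells. Of the perinuclear theca and actin-related list 18 of 29 were 2-fold higher in members than in late cells and 1 lower, with medians of 1.83 and 1.78, and 9 of 30 were 2-fold higher than in round cells and 3 lower, with medians of 0.74 and 0.82. Besides Ccin, Fam71f1 stood at 554 and 755 CPM against 67.1 and 95.4 in late and 178 and 184 in round cells. Cylc1, cylicin 1 of the theca, stood at 296 and 333 against 39.2 and 62.1 in late cells. Examples outside the rule for named genes, such as these, were chosen after their values were seen.

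Acrosome and sperm-egg fusion genes went the other way against round cells: 20 of 41 were 2-fold lower in members and 2 higher, with medians of -0.99 and -1.79. Against late cells 13 of 25 were 2-fold higher and 0 lower, with medians of 1.92 and 1.31. Calr3, a chaperone of the sperm endoplasmic reticulum, was one of the 2 above round cells, at 485 and 443 CPM in members against 125 and 120.4 in round and 50.3 and 51.4 in late cells. Izumo1, the sperm protein that binds the egg receptor, stood at 109 and 47.1 CPM against 224 and 217 in round cells.

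Of the axoneme and flagellum assembly list 30 of 50 were 2-fold lower in members than in round cells and 1 higher, with medians of -1.50 and -1.58. The 1 higher, Tekt5, a tektin of the sperm tail, stood at 281 and 235 CPM in members, 97.6 and 98.7 in round and 16.8 and 26.8 in late cells. Outer dense fibre and fibrous sheath genes were split against late cells, 7 of 33 higher and 9 lower. Odf3 stood at 493 and 774 CPM in members against 30.4 and 51.4 in late cells, and Akap4, the main protein of the fibrous sheath, at 828 and 799 against 2000.2 and 1704.

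Of the testis histone variant list, which also holds histone genes not specific to testis, 6 of 12 were 2-fold higher in members than in round cells and 3 lower. Hils1, a spermatid linker histone, stood at 3149 and 2524 CPM in members, 1690.1 and 1384 in round and 336 and 378 in late cells. H2al2a, a short H2A variant that loads with the transition proteins, stood at 1349 and 1224 CPM against 251 and 181 in round and 2957 and 2432 in late cells, so it was higher in the late set, unlike Hils1. H3f3b, a gene for the replacement histone H3.3, stood at 668 and 229.7 against 1857 and 2759.8 CPM in round cells.

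Of the spermatid transcription factors 8 of 16 were 2-fold higher in members than in late cells and 1 lower, against 35.9% and 7.05% of all genes. Fhl5, a partner of the factor Crem, stood at 1060.3 and 1217 CPM in members, 478 and 506 in round and 83.1 and 104 in late cells. Crem itself stood at 231 and 172 against 522 and 586 in round cells. Testis serine kinases and phosphatases were 2-fold higher than in late cells in 11 of 24 with 1 lower, a share near that of all genes. Cytosolic ribosomal protein genes were higher in 15 of 69, a smaller share than over all genes, and lower in 11, a larger share than over all genes. Their median log2 ratios, members over late, were -0.29 and -0.59, against 0.87 and 0.47 over all genes tested. Against round cells 0 ribosomal genes of 70 were higher and 2 lower.

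Within the members cells differed along the share of Prm1, Tnp1 and Tnp2. Each library's members were ranked by this share and the top 83 cells set against the bottom 83, with CPM computed without the 5 protamine and transition protein genes. The cuts lay at 7.61% and 11.96% in the heterozygous library, with 14 and 31 cells within 0.5 percentage points, and at 10.2% and 11.7% in the knockout library, with 55 and 51 cells. These are ranges of a continuous measure, and the knockout range was the narrower: the bottom cells had a median share of 5.73% in the heterozygous and 9.42% in the knockout library, the top cells 13.01% and 12.5%.

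Of 1867 genes tested 0 were 2-fold higher in the top cells of both libraries (0.0%) and 55 were 2-fold lower (2.95%). Of the 6 named lowest 3 encode acrosome proteins. Spaca3, a lysozyme-like acrosome protein, stood at 793 CPM in the bottom and 176 in the top heterozygous cells, and at 319.9 and 79 CPM in knockout cells. Spaca4, an acrosome membrane protein, stood at 883 and 278, and at 369 and 110.2 CPM. Tmem190, another membrane protein of the acrosome, Fyb, Spata45 and Ramac had log2 ratios of -2.60 to -1.67. The cells with little protamine RNA held the round spermatid markers too, with a median share of 0.232% against 0.0557% in heterozygous members and 0.117% against 0.0746% in knockout members.

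The genes highest in the top cells stayed under 2-fold in at least 1 library. Ubqlnl, an ubiquilin-like testis protein, stood at 99.7 and 197 CPM in bottom and top heterozygous cells and 116 and 241 in knockout cells. Asb1 stood at 46.9 and 161, and 146 and 263 CPM. Arl9, Rundc3a, March8 and Cyp2a12 had log2 ratios of 0.72 to 1.97. When the members were ranked by A share in place of the protamine share, 5 genes in place of 55 were 2-fold lower in the top cells.

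**Figure D3:**
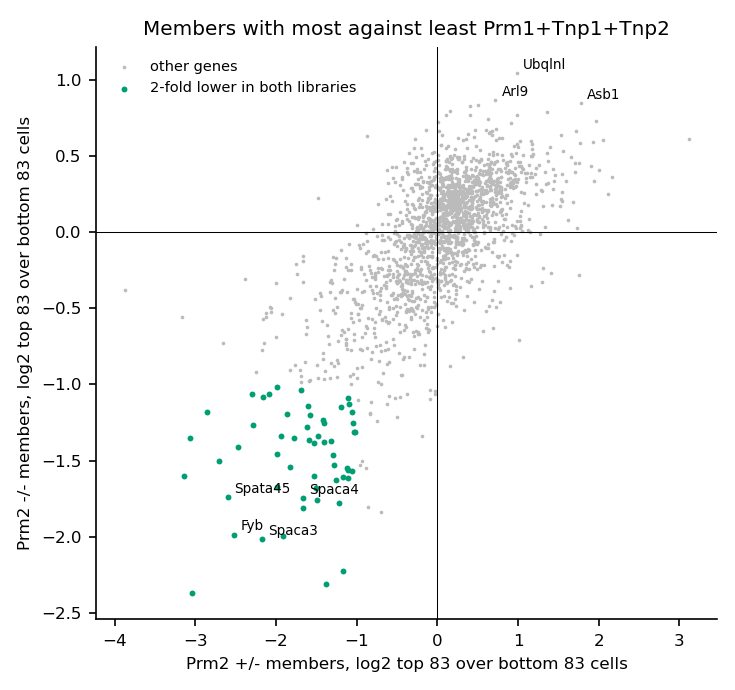
Log2 ratio of the 83 members with the highest over the 83 with the lowest Prm1, Tnp1 and Tnp2 share, Prm2 +/- library on the horizontal and Prm2 -/- library on the vertical axis, for 1867 genes (CPM without protamine and transition protein genes). The 55 green points, 2-fold lower in both libraries, fill the lower left corner and the upper right corner holds 0 genes 2-fold higher in both.

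In heterozygous members the A share was higher where the Prm1, Tnp1 and Tnp2 share was higher (Spearman rho 0.75 over 250 cells of 1 library) and lower where the round marker share was higher (-0.65). In knockout members, chosen from a narrower range of A, these were 0.17 and -0.05. Over all barcodes above 4%, A ran against the protamine share, at -0.28 in 2735 and -0.35 in 5325 barcodes. All of these shares have the cell's UMI total in common.

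After thinning to 2000 UMIs the Fano factor (variance over mean, 1 for pure counting) had a median of 1.05 in heterozygous and 1.03 in knockout members. This covers 1536 genes with a mean of at least 0.2 UMIs, and 15 genes were over 1.5 in both. At such low means the factor stays near 1 even where levels differ, so it cannot show that most genes vary little. Spaca3, over 2-fold lower in the top than in the bottom knockout cells, had 1.02 at a mean of 0.3 UMIs. Prm1 had 12.05 in heterozygous and 3.29 in knockout members, Tnp2 8.05 and 3.25, and Tnp1 5.14 and 1.99, all part of the rule. Mitochondrial transcripts varied as much, with 9.44 and 7.38 for mt-Co3. The nuclear RNA Malat1 had 2.54 and 1.96, Fam209, an acrosome-related membrane protein, 2.03 and 1.83, and Spata45 1.79 and 1.38, with Scp2d1 and Smcp between 1.43 and 1.45.

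Between the genotypes the members differed in few genes, and the count depended on which knockout cells were compared. Of 2976 genes tested 48 were 2-fold higher in knockout members (1.61%) and 152 were 2-fold lower (5.11%), with a median log2 ratio of -0.03. With knockout cells matched to each heterozygous member on A, B and Prm1+Tnp1+Tnp2 shares together, a setting added after the data were seen, 90 of 3070 were higher (2.93%) and 36 lower (1.17%). Of the 152 lower genes 29 were still 2-fold lower with these cells and 24 were now above 0, and of the 48 higher genes 34 were still 2-fold higher and 0 below 0. In all 3 added choices (matched on A, matched on A, B and protamine share, and all barcodes with A above B) 33 of the 48 and 23 of the 152 remained 2-fold in the same direction. Matched on A alone, 135 genes were higher (4.26%) and 29 lower (0.915%), and with all barcodes 97 (3.08%) and 27 (0.858%). Of the 152 lower genes 123 were also tested against round cells, and 71 of these were 2-fold below round cells in the members of both libraries, against 31.2% of all genes. Being low in knockout members is part of how the 152 were found, so this is a description. Between genotypes 34 of the 48 higher genes were 2-fold higher in the late set too, and 13 in the round set. Of the 152 lower genes 22 were 2-fold lower in the late set, where 9 were 2-fold higher, and 18 were lower in the round set. No minimum level was set for these counts.

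**Figure D4:**
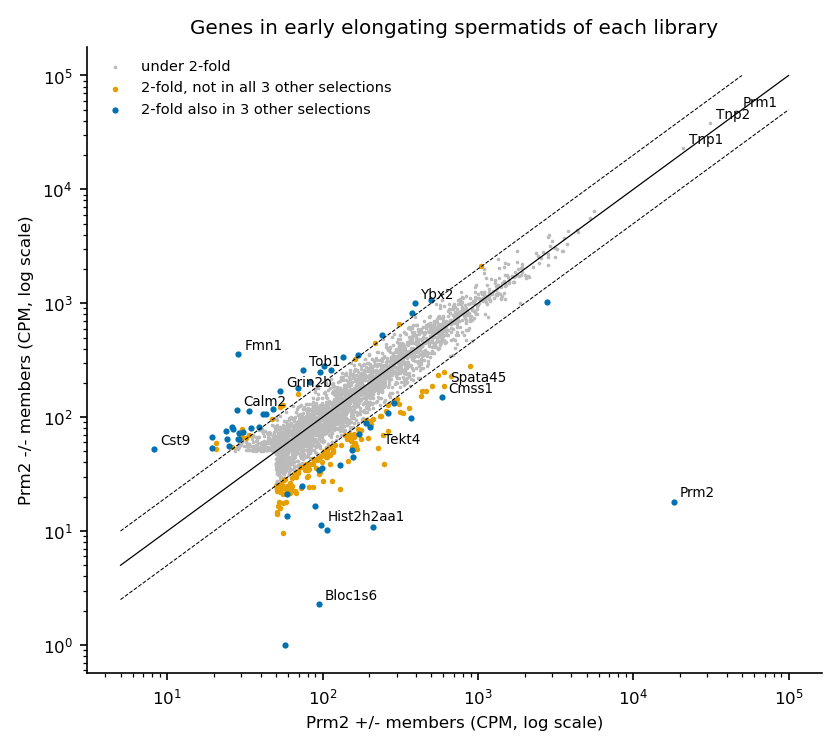
CPM of 2976 genes in Prm2 +/- members (horizontal, log axis) and Prm2 -/- members (vertical, log axis), with levels under 1 CPM drawn at 1. Solid and dashed lines mark equal and 2-fold levels; blue points are the 56 genes that were 2-fold the same way in the members and in the 3 other choices of cells, orange points the other 144 past 2-fold.

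Fmn1, a formin that builds actin filaments, was the gene highest in knockout over heterozygous members (chromosome 2, 113327736 to 113716767, plus strand). It stood at 28.7 CPM (84 UMIs) in heterozygous and 359 CPM (633 UMIs) in knockout members, log2 3.65 (interval 3.32 to 3.99). The log2 ratio was 4.53 in late condensing, 1.89 in round and 1.47 in Sertoli cells, so it was higher in the knockout library in all 4 sets. In matched knockout cells it was 3.46.

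Tob1, an antiproliferative protein that recruits the mRNA deadenylation machinery, stood at 74.7 and 260.3 CPM, log2 1.80 (1.17 in matched cells). Ybx2, the germ cell Y-box protein that stores protamine and other spermatid mRNAs (chromosome 11, 69935796 to 69941605, plus strand), stood at 393 and 999.9 CPM, log2 1.35 (1.22 in matched cells), and its ratio was 1.17 in late and 1.01 in round cells. Its relative Ybx3 stood at 1099 and 2015 CPM, under the 2-fold rule at 0.87. Of the stored mRNA and translation control list 1 of 25, Ybx2, was 2-fold higher and 0 lower, with a median of 0.23 against -0.03 over all genes tested. Over all genes tested 1.61% were higher and 5.11% lower.

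Grin2b, a glutamate receptor subunit, stood at 53.6 and 169.6 CPM, log2 1.66. Ostm1, a lysosomal membrane protein, stood at 25.9 and 81.1 CPM. Calm2, 1 of the genes for calmodulin, stood at 28.3 and 116 CPM, with 484 and 854 in Sertoli cells. Kif16bos and Ccdc73 were higher by log2 1.66 and 1.47. All of these kept a 2-fold difference in the 3 other choices of cells. Ung, a uracil-DNA glycosylase, was also 2-fold higher, at 20.5 and 59.6 CPM, and did not keep that size in all 3.

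Cst9, a cystatin that serves as a Sertoli marker, stood at 8.19 CPM (24 UMIs) in heterozygous and 52.2 CPM (92 UMIs) in knockout members, log2 2.67, against 1733 and 3267 CPM in Sertoli cells. It moved with the whole Sertoli list, 99.3 and 329 CPM in the members, where Sox9 and Amh of the 15 markers were at 0 in heterozygous and Amh in knockout members. Tmsb4x, an actin-binding thymosin, stood at 47.8 and 118 CPM in the members and 2003 and 3416 in Sertoli cells. The part of Sertoli RNA in these and in Calm2 was not tested. Fmn1, Tob1, Grin2b and Ostm1 stood at or below 53.7 CPM in the Sertoli cells of both libraries, below their level in knockout members.

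Mitochondrially encoded transcripts were higher in knockout members as a group. All 9 tested were above 0 and 5 were 2-fold higher, against 1.61% of all genes tested, with a median of 1.13. Mt-Cytb, cytochrome b, stood at 102 and 280.2 CPM, log2 1.45. The ratio of mt-Cytb was 1.49 in late, 0.89 in round and 0.74 in Sertoli cells, and the mitochondrial share per cell was also higher in knockout Sertoli cells, at a median of 10.1% against 6.27%. The median mitochondrial share was higher in the knockout library in all 4 sets, and its part in this result was not tested.

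Bloc1s6, a subunit of the complex that builds lysosome-related organelles, was the lowest gene after Prm2 (chromosome 2, 122738503 to 122749475, plus strand). It stood at 94.5 CPM (277 UMIs) in heterozygous and 2.27 CPM (4 UMIs) in knockout members, log2 -5.38 (interval -7.27 to -4.01). The ratio was -2.24 in late, -4.36 in round and -1.07 in Sertoli cells. The late value rests on 19 UMIs in the heterozygous and 1 in the knockout library, counted at the floor of 3, so it understates the fall. With matched knockout cells the ratio to heterozygous members was -5.06.

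Hist2h2aa1, an H2A gene with a near-identical copy beside it so that its reads may be split, stood at 97.9 and 11.3 CPM, log2 -3.11. Cdk8, the kinase of the Mediator complex, stood at 88.7 and 16.4, and Phb, prohibitin of the inner mitochondrial membrane, at 58.7 and 13.6 CPM. Cdk8 was lower in the knockout library in the other sets too, by log2 -2.93 in late, -2.61 in round and -3.07 in Sertoli cells (373 and 44.5 CPM). Cmss1 stood at 587 and 150.3 CPM in members, log2 -1.97, and at 1808 and 232 in Sertoli cells, log2 -2.96. These 4 were 2-fold lower in all 3 other choices of cells too.

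Pgrmc1, a heme-binding membrane protein, Tbc1d23, a trafficking protein of the Golgi, Tekt4, a tektin, and Spata31 were among the 10 lowest but did not keep a 2-fold difference. Tekt4 stood at 228 and 53.3 CPM in members and 637 and 597 in round cells, and its log2 ratio between genotypes went from -2.10 in members to -0.10 within the round set and -0.05 within the late set. Pgrmc1 stood at 56 and 9.64 CPM in members and 114 and 128 in round cells. Spata45 stood at 601 and 186 CPM, log2 -1.69, and at a ratio of -0.59 in cells matched on all 3 shares. H3f3b stood at 668 and 229.7 CPM, log2 -1.54, and turned to 0.36 in those cells.

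The acrosome list had a median of -0.45 between genotypes with 9 of 29 2-fold lower and 0 higher, and the axoneme list -0.32 with 7 of 36 lower and 0 higher. With matched knockout cells these medians were 0.07 and 0.02. Cytosolic ribosomal proteins had a median of -0.24, with 61 of 69 below 0 and 1 2-fold lower, Rpl31, at 172 and 70.9 CPM. Of all genes tested 1.61% were higher and 5.11% lower. The testis histone variant list, which also holds histone genes not specific to testis, had 3 of 13 lower and 0 higher. These 3 were Hist2h2aa1, H3f3b and Hist1h2bp, and the testis variants Hils1 and H2al2a were not among them. Hist2h2aa1 alone was 2-fold lower in all 3 other choices of cells, while H3f3b and Hist1h2bp crossed 0 in at least 1 of them. Perinuclear theca genes had 2 of 29 higher and 1 lower; the 2 higher were the thymosins Tmsb4x and Tmsb10, which bind actin in many cells. Outer dense fibre genes, the glycolysis list, the transcription factors, the autophagy list and histone eviction genes had 0 past 2-fold of 34, 30, 16, 12 and 12. Apoptosis and p53 target genes had 0 of 3, and DNA break response and repair genes 1 of 3, Ung.

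**Figure D5:**
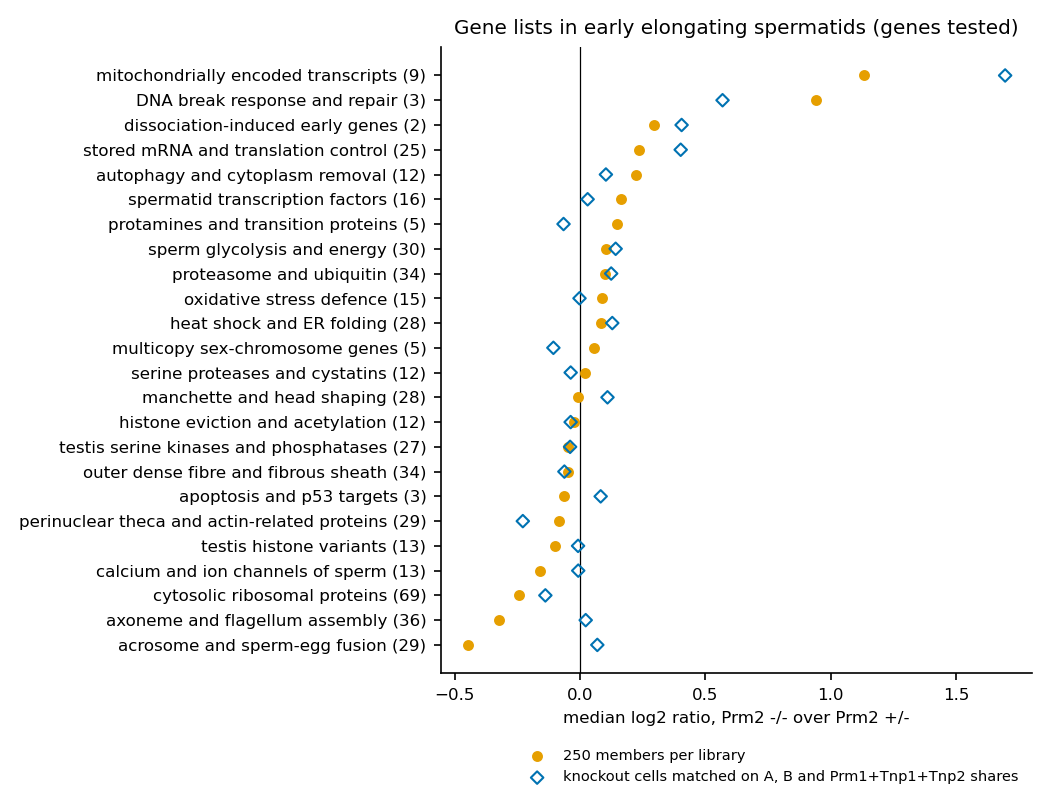
Median log2 ratio of Prm2 -/- over Prm2 +/- for 24 gene lists (number of genes tested in brackets), for the 250 members per library (orange circles) and for knockout cells matched to the heterozygous members (blue diamonds). Acrosome and axoneme medians lie at -0.45 and -0.32 for the members and at 0.07 and 0.02 for matched cells, while the mitochondrial median stays above 1 in both.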

How the data were processed

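Single-cell RNA was measured in 2 libraries, 1 per genotype. Per the labels' protocols, 15000 dissociated cells per library entered a 10x Genomics 3′ v3.1 kit. What the authors deposited are raw UMI counts for each gene in each barcode; per the file headers they came from Cell Ranger 7.1.0. Seurat 4.1.0 and the mm10 build also appear in the submitters' processing notes, and the use made of Seurat is not given in the sources used here. The libraries held 71364845 and 123588822 UMIs, with medians of 1882.5 and 3716 per barcode. Positions are from GENCODE M21, in which 32235 of 32285 gene IDs were found, and promoter sequences are from RefSeq on GRCm38.p6. Tags come from 3′ ends, so levels were not scaled by gene length.

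Members, sets and gene lists were chosen with earlier results of these data known. Most lists and some settings follow a session that had already seen them, so no list is independent evidence. The 250 cells of each set were added up gene by gene and scaled to CPM. Ratios have exact conditional binomial intervals, shares exact Clopper-Pearson intervals, both at 95% and for counting error only. In log2 ratios a gene with fewer than 3 UMIs in a set was counted at 3, so a fall to so few UMIs is understated. Where 0 cells had a UMI, a limit of 3 counts was used. A gene entered a comparison when it reached 50 CPM in either set and 100 UMIs in both together, and was called at 2-fold (log2 of 1). In comparisons of stages a gene had to pass in both libraries, in the same direction. No test was run, since cells of 1 library are not replicates. For shares of cells with a UMI, every cell was first thinned to 2000 UMIs. The level of spermatid genes in other cells was read from the 250 barcodes with at least 500 UMIs, at most 20% mitochondrial UMIs and the highest share of 15 Sertoli markers. Doublets were scored with Scrublet in scanpy 1.11.5 on barcodes that met the same limits and held at least 250 genes, with an expected rate of 0.8% per 1000 barcodes. It marked 462 (3.07%) and 3540 (15.7%), which were kept in the sets and left out in an alternative.

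The genes named are those that chose a set and the 5 protamine and transition protein genes; the 10 highest and 10 lowest log2 ratios between genotypes; the 12 largest in each direction against late cells, the 8 against round cells and the 6 between top and bottom members, by the smaller ratio of the 2 libraries; the 10 most abundant nuclear genes; the 8 most variable; and up to 3 genes per list. Predicted and clone-based names were left out. Some genes that the rule names are not reported here. Alternatives changed the number of cells, the protamine, depth and mitochondrial limits, doublets, scaling (TMM factors of edgeR 4.0.16, totals without protamine and transition protein genes, equal weight per cell), thinning and the minimum CPM. The comparison of ratios and intervals was tested on simulated data. SciPy 1.17.1 and NumPy 2.4.6 were used.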

Additional observations from a re-analysis of the deposited data

How the results depend on the processing

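No paired analysis was possible because each genotype has 1 library. A choice of 500 cells per library was not run, since the heterozygous library has 291 candidates, and the limit of over 8% Prm1, Tnp1 and Tnp2 left 163 heterozygous cells.

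The count of genes 2-fold higher in knockout members (48) was 22 with cells thinned to 2000 UMIs, 80 with a minimum of 10 CPM and 16 with a minimum of 200 CPM. In the selections added after the data were seen it was 97 with all barcodes with A above B, 135 with knockout cells matched on A share and 90 with cells matched on A, B and Prm1+Tnp1+Tnp2 shares. The count of lower genes (152) was 39 with 100 cells per library, 39 over 8%, 71 with thinned cells, 249 at 10 CPM, 36 at 200 CPM, and 27, 29 and 36 in the 3 added selections. Of 2976 genes tested, 1729 were left with thinned cells, 1095 at 200 CPM and 2461 with 100 cells, and 4608 were tested at 10 CPM. The cause of the other shifts, and of the fall to 39 with 100 cells, was not tested. Genes 2-fold higher in members than in late cells (948 of 2640 tested) numbered 549 of 1553 with 100 cells, 406 of 1360 with thinned cells and 339 of 1012 at 200 CPM. Against round cells the higher genes (536 of 3760) numbered 351 of 2102, 257 of 1818 and 220 of 1297 in the same 3 settings. The lower genes (1173) numbered 433, 341 and 270 of the same totals. Between top and bottom members the 55 lower genes of 1867 became 5 of 1849 when ranked by A share and 8 of 579 with thinned cells. The other 41 recomputed counts stayed within 1.5 times.

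Some single genes and list medians crossed 0 between genotypes. With 100 cells per library Catsper3 was at 0.15, H3f3b 0.73, Pgrmc1 0.25, Slxl1 0.46, Spaca1 0.18, Sun5 0.054 and Zpbp 1.21, and the medians of the acrosome, ion channel and protamine lists at 0.082, 0.079 and -0.071. Over 8%, H3f3b was at 0.60, Slxl1 0.074, Sun5 0.070 and Zpbp 0.12, and the protamine list at -0.069. With all barcodes with A above B, Fyb was at 0.23, H3f3b 0.17, Slxl1 0.41, Spaca1 0.066 and Zpbp 0.20, the acrosome list at 0.012 and the protamine list at -0.13. Matched on A share, Fyb was at 0.32, H3f3b 0.49, Hist1h2bp 0.19, Slxl1 0.77, Spaca1 0.28, Spata31 0.017 and Zpbp 0.47, and the acrosome, autophagy, ion channel and protamine lists at 0.026, -0.0053, 0.059 and -0.24. Matched on A, B and Prm1+Tnp1+Tnp2 shares, Fyb was at 0.15, H3f3b 0.36, Slxl1 0.44, Spaca1 0.18 and Zpbp 0.40, and the acrosome, axoneme and protamine lists at 0.069, 0.022 and -0.066. The cause of these was not tested. Prm2 stayed between -10.27 and -9.43 and Fmn1 between 3.39 and 3.72 under every alternative that gave a value. Depth limits genes near 50 CPM, for which the rule asked 100 UMIs over both sets together and not in each.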
